A study of Mus musculus with 4 samples.

Results

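Cytosolic ribosomal protein genes encode the protein parts of the ribosomes that translate nuclear mRNAs. They were taken from the probe annotation as the gene symbols that begin with Rpl, Rplp or Rps, go on with a number and may end in a, l or x, on probe sets naming 1 gene. This pattern leaves out the ribosomal S6 kinases. It found 45 genes, 24 of the large subunit and 21 of the small subunit, among 18193 genes with such a probe set. Of a gene's probe sets, the one brightest on average over the 4 arrays was read. The members' 98 probe sets include 69 whose names end in _x_at, _s_at or _a_at, which mark probes that can match other transcripts or several transcripts of a gene. All 45 symbols had the same name by gene number in the RefSeq gene table. That table calls 1 of them, Rps4l, a transcribed pseudogene, and it lay below the testing floor.

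The arrays measured RNA of T29, a mouse thymic lymphoma line that the design text calls Ikaros-deficient. All 4 samples were transduced with MigR1-MLER, which carries an inducible form of dominant-negative Mastermind, the co-activator through which Notch turns on its targets. The first group, of 2 samples, was kept for 24 h with 100 nM 4OHT, a tamoxifen metabolite, and the second, also of 2 samples, for 24 h with ethanol, its solvent. It is 1 cell line. Samples lacking the construct were not analysed here, so effects of 4OHT itself and of the construct cannot be told apart. Whether the replicates are separate cultures is not in the labels, and the p-values then measure nothing beyond the spread among these samples, possibly a technical one.

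A ribosome has a small subunit, which reads the mRNA, and a large subunit, which joins the amino acids. Ribosomal proteins are built in about equal numbers of copies, and their mRNAs belong to the most abundant of a growing cell. Many of these mRNAs start with a C followed by a run of pyrimidines, the terminal oligopyrimidine (TOP) tract, through which the mTOR pathway controls how much of the mRNA is translated. Their production, together with that of the nucleolar factors that assemble ribosomes, is part of the growth programme that Myc drives in T-cell leukaemia downstream of Notch.

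The values are log2 expression values that RMA had scaled over the arrays, so changes are relative to the other transcripts, and less RNA per cell cannot be told apart from fewer cells of a kind. Across 11581 genes tested, Pearson's r was 0.994 within 4OHT, 0.995 within ethanol and 0.983 to 0.987 between the groups. Dtx1, a direct Notch target, was lower with 4OHT (log2 change -3.41, limma adjusted p = 0.0005). Of 7 T-lineage markers with a probe set, 5 were above the testing floor, at log2 values from 10.6 to 13.2, while Cd2 and Cd5 were below it. Cd247 rose and Cd3g fell, but neither was called when any 1 array was left out, nor Cd247 with the mean of probe sets. Of 13 markers of B, myeloid, erythroid and stromal or epithelial cells, 5 were above the floor and none passed the test. The stromal marker Pdgfrb had 8.14 and 8.57 with 4OHT and 8.65 and 8.65 with ethanol. Itgam, a myeloid marker below the floor on average, had 4.83 and 4.79 with 4OHT and 4.10 and 3.96 with ethanol. Without a filter on dim genes, 1 of 4 myeloid markers was called higher. The summed log2 values of the 13 markers were 63.3 and 63.4 with 4OHT and 63.8 and 64.2 with ethanol. As a measure of RNA quality, the Actb control differed between its 3′ and its 5′ probe set by a log2 value of 0.43 and 0.45 with 4OHT and 0.40 and 0.49 with ethanol. The same difference for 18S ribosomal RNA was higher with 4OHT, at 0.90 and 0.82, than with ethanol, at 0.051 and 0.32, and its part in the results was not tested.

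No ribosomal protein gene passed the test, and most differed between 4OHT and ethanol by less than 0.1 on the log2 scale. None of the 41 members above the testing floor of 4.81 (log2) passed, with 0 of 22 of the large subunit and 0 of 19 of the small subunit called by limma at an adjusted p under 0.05. Among all genes tested, 7.47% were called, 3.9% higher and 3.57% lower. Before adjustment, 1 member had a p under 0.05, Rpl14, as did 25.5% of all genes tested. The median log2 change, 4OHT minus ethanol, was -0.0047 for the large subunit and 0.0019 for the small subunit, beside -0.012 over all genes tested. With quantile normalization the small subunit median was -0.0026 and with median centring -0.0076. The large subunit median was 0.0039 to 0.021 in 3 of the fits that left out an array. Neither median change thus has a settled sign. The median value of the large subunit on each array was 14.00 and 13.99 with 4OHT and 14.01 and 14.03 with ethanol, differing by -0.025. For the small subunit it was 14.00 and 13.96 with 4OHT and 13.93 and 13.93 with ethanol, differing by 0.051. On every array this small subunit median was the value of 1 gene, Rps7, so 0.051 is the change of that gene. The changes of 35 of the 41 members, or 85.4%, lay within 0.1 of 0 on the log2 scale, which is a fold of 1.07. The share was 35.3% of all genes tested, which were not matched to the members in signal level. A comparison nearer the members' level is given below. In 38 members limma's 95% interval of the change lay within 0.5 of 0, a fold of 1.41. The other 3, Rpl12, Rpl14 and Rps25, were read from probe sets at log2 values of 8.10 to 9.65. The 2 treatment groups did not overlap in 18 of the 41 members, 43.9%, where the share over all genes tested was 56.9%.

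**Figure D1:**
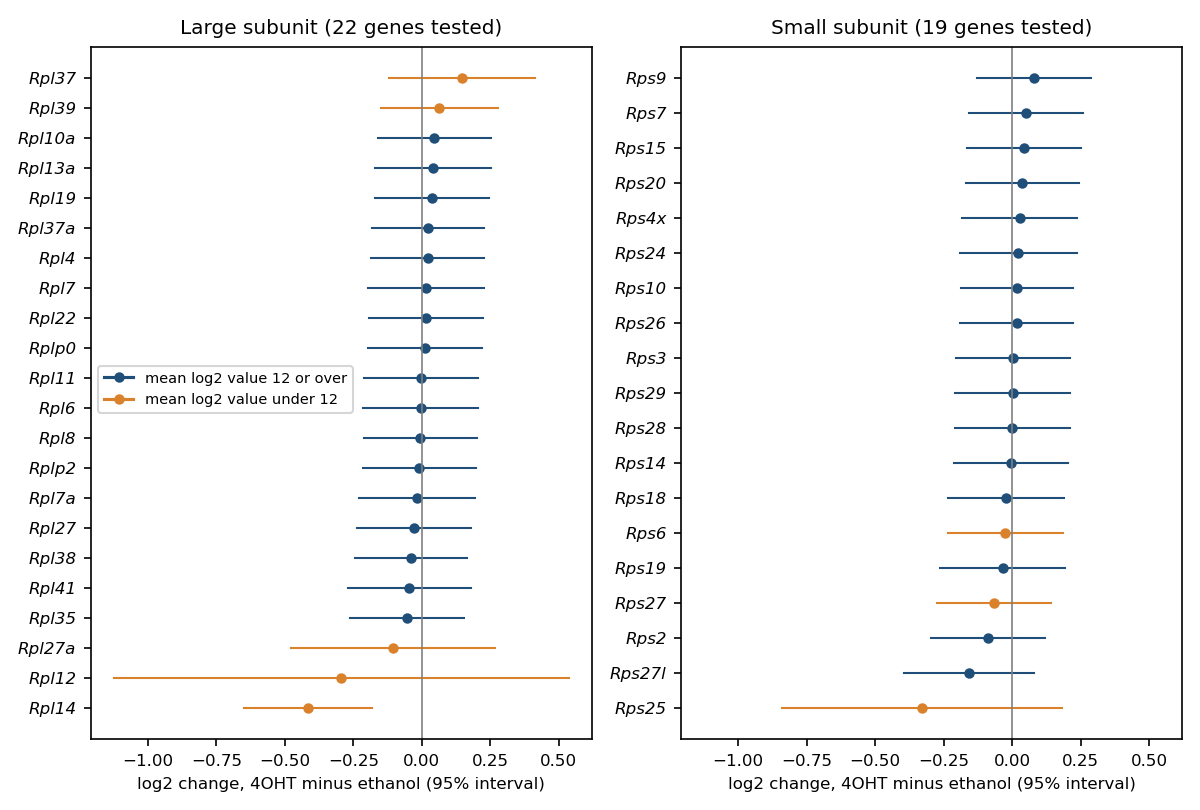
Log2 change, 4OHT minus ethanol, of the 41 ribosomal protein genes tested, with limma's 95% interval (2 arrays a group). Blue points are read from probe sets with a mean log2 value of 12 or over and orange points from dimmer ones; the interval of Rpl14 alone leaves out 0.

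Most members were read from bright probe sets. Of the 41 members, 33 had a mean log2 value of 12 or over, and their changes lay between -0.16 and 0.079. Their median absolute change was 0.022, and the median SD within a group was 0.021. The other 351 genes tested in that range had a median absolute change of 0.11 and a within-group SD of 0.051, and 4.84% of them were called. Their means start at 12.01, while 32 of the 33 members had means of 13.56 or over. The 27 other genes tested with means from 13.51 up had a median absolute change of 0.054 and an SD of 0.029. Of these 27, 74.1% had changes within 0.1 of 0, as did all 32 members. The contrast was thus smaller near the members' own signal level. The brightest member, Rpl37a, had a mean of 14.3. Whether such bright probe sets still respond in proportion to the amount of RNA was not tested.

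In the large subunit, the P stalk is the protein arm that recruits elongation factors to the ribosome. Rplp0, its base, had 14.28 and 14.28 with 4OHT and 14.29 and 14.24 with ethanol. Rplp2, which forms the flexible arm with Rplp1, had 14.34 and 14.32 with 4OHT, against 14.34 and 14.35 with ethanol. Their changes were 0.011 (95% interval -0.20 to 0.22) and -0.0095 (-0.22 to 0.20), and the groups overlapped for both. Rpl11, which with Rpl5 and 5S ribosomal RNA forms the particle that can bind Mdm2 and stabilise p53, had 14.00 and 14.02 with 4OHT and 13.99 and 14.03 with ethanol. Its change of -0.0044 had an interval from -0.21 to 0.20. Rpl5, Rplp1, Rpl3 and Rpl10 share their named probe sets with other genes and were not read.

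Rpl22 encodes a large subunit protein that developing alpha-beta T cells need in mice. It had 13.96 and 13.96 with 4OHT, against 13.93 and 13.97 with ethanol, and its 3 probe sets had changes of -0.0032, 0.015 and 0.14. The probe set with the largest of these changes was the dimmest, at 9.96 and 9.88 with 4OHT and 9.81 and 9.74 with ethanol, without overlap between the groups. Its relative Rpl22l1, outside the pattern that chose the members, had 10.95 and 11.01 with 4OHT and 10.80 and 10.99 with ethanol. Neither gene passed the test (adjusted p = 0.932 and 0.655 in limma).

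Rpl14, a component of the large subunit, had the lowest change of all members. Its only probe set is among the dim ones described below, most of which lay below 0. Rpl14 had 8.68 and 8.78 with 4OHT, against 9.21 and 9.09 with ethanol. Both 4OHT arrays lay below both ethanol arrays, a 1.33-fold difference (log2 change -0.42 ± 0.094 SE, n = 2 each, limma adjusted p = 0.0604). The adjusted p ranged from 0.0219 to 0.228 over 13 alternative fits, and 4 of them called the gene: a filter at the 60th percentile (0.0406), a variance prior with an intensity trend (0.0424, in a fit that called 11.2% of all genes), that prior made robust (0.0377) and the replicate block (0.0219). Rpl12, part of the stalk base, had 8.97 and 8.10 with 4OHT and 9.15 and 8.51 with ethanol, a change of -0.29 whose interval ran from -1.13 to 0.54. In that gene the arrays of 1 treatment differed by more than the treatments did. Its change was 0.14 without 4OHT replicate 2 and 0.022 without ethanol replicate 1, but -0.73 without 4OHT replicate 1 and -0.61 without ethanol replicate 2.

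Of the other large subunit genes, those at the ends of the range still lay within 0.15 of 0. Rpl35 had 14.00 and 13.96 with 4OHT and 14.02 and 14.04 with ethanol, and Rpl27a had 8.56 and 8.71 with 4OHT and 8.93 and 8.55 with ethanol. At the upper end, Rpl37 had 11.11 and 11.03 with 4OHT, against 10.82 and 11.03 with ethanol, the highest change of all members at 0.15 (adjusted p = 0.441). Rpl10a had 13.76 and 13.77 with 4OHT and 13.71 and 13.73 with ethanol, without overlap, at a change of 0.045. For Rpl13a, which in human cells is also known to silence certain inflammatory mRNAs when it leaves the ribosome, all 4 probe sets were above 0, from 0.042 for the brightest to 0.20 for the dimmest, and none passed. The dimmest had 12.52 and 12.41 with 4OHT and 12.31 and 12.22 with ethanol.

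Paralogs known for restricted use lay below the floor. Rpl3l, known from heart and muscle, had 3.60 and 3.42 with 4OHT and 3.50 and 3.44 with ethanol. Rpl39l, known from testis, had 3.34 and 3.27 with 4OHT and 3.52 and 3.50 with ethanol. Neither was tested, nor was Rps4l, at 3.38 and 3.43 with 4OHT and 3.45 and 3.26 with ethanol. Their broadly used counterparts Rpl39 and Rps4x had changes of 0.064 and 0.027 (adjusted p = 0.68 and 0.87). Rps16, which is not among these paralogs, was the remaining member below the floor, at 2.96 and 3.11 with 4OHT and 2.99 and 3.23 with ethanol. It was read from its only probe set naming 1 gene, and whether that set detects its transcript was not tested.

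In the small subunit, Rps6, the protein that S6 kinases phosphorylate when mTOR is active, had 9.84 and 9.79 with 4OHT, against 9.86 and 9.82 with ethanol. Its change was -0.025, with an interval from -0.24 to 0.19. Rps19, the gene most often mutated in Diamond-Blackfan anaemia in humans, had 13.84 and 13.71 with 4OHT and 13.82 and 13.79 with ethanol, at a change of -0.034. Rps9 had the highest change of the subunit, 0.079, with 13.75 and 13.75 with 4OHT, against 13.69 and 13.65 with ethanol, and the groups did not overlap. Rps7, which can bind Mdm2, had 14.00 and 13.96 with 4OHT and 13.93 and 13.93 with ethanol, and Rps15 had 13.84 and 13.80 with 4OHT and 13.78 and 13.78 with ethanol. Neither overlapped, and neither passed (adjusted p = 0.745 and 0.789).

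Rps27l, a copy of Rps27 that p53 can induce, lay below 0 in each of its 3 probe sets. The brightest had 12.48 and 12.38 with 4OHT, against 12.52 and 12.65 with ethanol, without overlap (log2 change -0.16 ± 0.095 SE, adjusted p = 0.356). Its other probe sets were at -0.14 and -0.18. The 3 sets are repeat readings of 1 gene, not replicates. Rps27 itself had 7.54 and 7.56 with 4OHT and 7.60 and 7.63 with ethanol, a change of -0.067 (adjusted p = 0.657). Rps2 had 14.05 and 14.09 with 4OHT, against 14.17 and 14.15 with ethanol, and was also without overlap at a change of -0.089 (adjusted p = 0.552). Rps25, needed in human cells for translation from some viral entry sites, had 9.38 and 8.88 with 4OHT and 9.65 and 9.27 with ethanol. Its groups overlapped, and its change of -0.33 had an interval from -0.84 to 0.18. Rps25 was called with the replicate block (adjusted p = 0.0475), in a fit that called 18.4% of all genes. Without 4OHT replicate 2 the change was -0.080, without ethanol replicate 1 it was -0.14, and without 4OHT replicate 1 and ethanol replicate 2 it was -0.58 and -0.52.

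**Figure D2:**
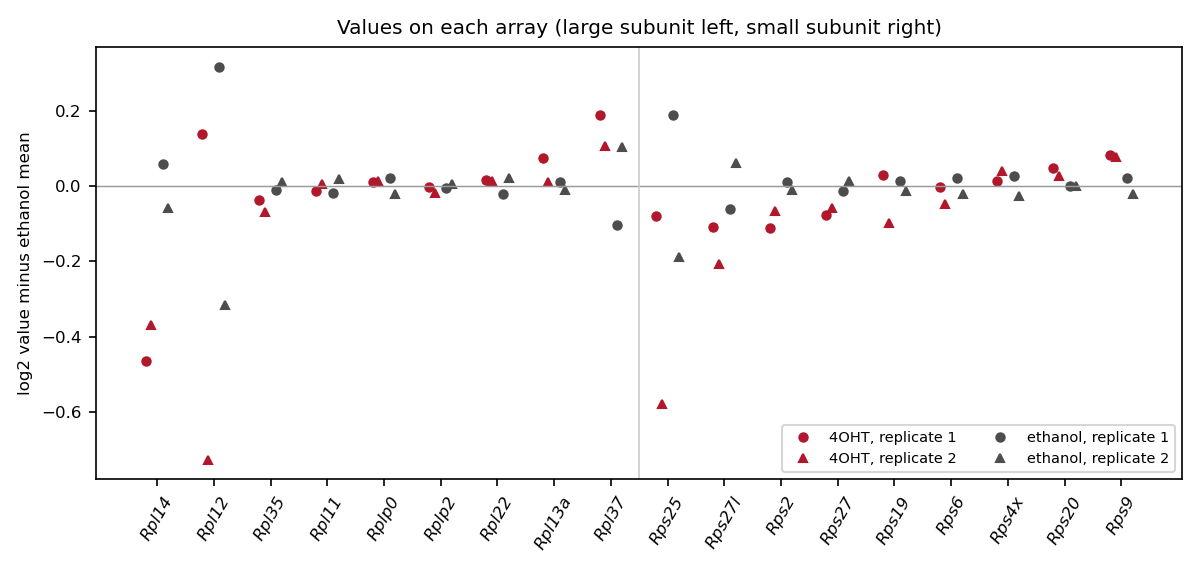
Log2 value of 18 ribosomal protein genes on each array, minus the gene's ethanol mean, with 4OHT in red left of ethanol in grey and the replicate number as the symbol. Rpl14 is the gene at the far left whose 4OHT arrays lie well below its ethanol arrays; in Rpl12 and Rps25 the arrays of 1 treatment are far apart.

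Reading all probe sets of the members side by side gave a second pattern. Of the 98, 88 were above the floor, and none was called by limma, where 4.02% of all probe sets were. Unadjusted, 3 of the 88 had a p under 0.05, as did 4761 of all 20967 probe sets tested. The 66 member probe sets with a mean of 12 or over had a median change of 0.0013, with 32 below 0. The 22 dimmer ones had a median of -0.15, with 18 below 0, beside a median of -0.0028 and 50.4% below 0 among 20361 other probe sets under 12. In the small subunit 12 of 13 dim sets were below 0, and in the large subunit 6 of 9. The only probe sets of Rpl14, Rpl12 and Rps25 are among these dim sets. The split at 12 was chosen after the values were seen. The groups did not overlap in 11 of the 22, or 50%, against 54.3% of all probe sets tested.

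Bright and dim probe sets of the same gene could be compared in 10 genes. The dim ones had the lower mean change in 9 of them, all but Rpl22. The gap was small in Rps3, at -0.026 against 0.0022. In Rps9 a dim set was at 0.0795 and the bright set at 0.0790. Rpl13a, with all its sets over 12, went the other way, from 0.042 for the brightest to 0.20 for the dimmest. How often dim sets are the lower ones in genes that are not members was not counted. Rps20, a small subunit gene, shows the widest gap. Its brightest set had 13.95 and 13.93 with 4OHT and 13.90 and 13.90 with ethanol, while its dimmest had 5.49 and 5.95 with 4OHT, against 6.27 and 6.29 with ethanol. The dimmest set had a change of -0.56 ± 0.17 SE (adjusted p = 0.128). Rps24 had 6 probe sets, of which 4 bright ones had changes of -0.0051 to 0.023 and the dimmest one of -0.48 (adjusted p = 0.107), at 4.998 and 4.94 with 4OHT and 5.30 and 5.59 with ethanol. Rps18 likewise had 3 bright sets between -0.037 and -0.022 and a dim one at -0.30, at 6.96 and 6.52 with 4OHT and 7.20 and 6.88 with ethanol, beside further sets below the floor.

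The member sets also differed with the replicate number. In 10 of the 22 dim sets and 25 of the 66 bright ones the array numbered 1 was above the array numbered 2 in both treatments, which held for 26.9% of all probe sets tested. One dim set of Rps24, for example, had 7.77 and 6.76 with 4OHT and 7.87 and 6.77 with ethanol. The median change of the dim sets depended on which array was left out, at -0.24 without 4OHT replicate 1, -0.078 without 4OHT replicate 2, -0.041 without ethanol replicate 1 and -0.28 without ethanol replicate 2. From 13 to 18 of the 22 were below 0 in these settings. With quantile normalization or median centring 18 were below 0. The place of these probes in the transcripts was not given in the sources used here, and its part in the pattern was not tested.

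**Figure D3:**
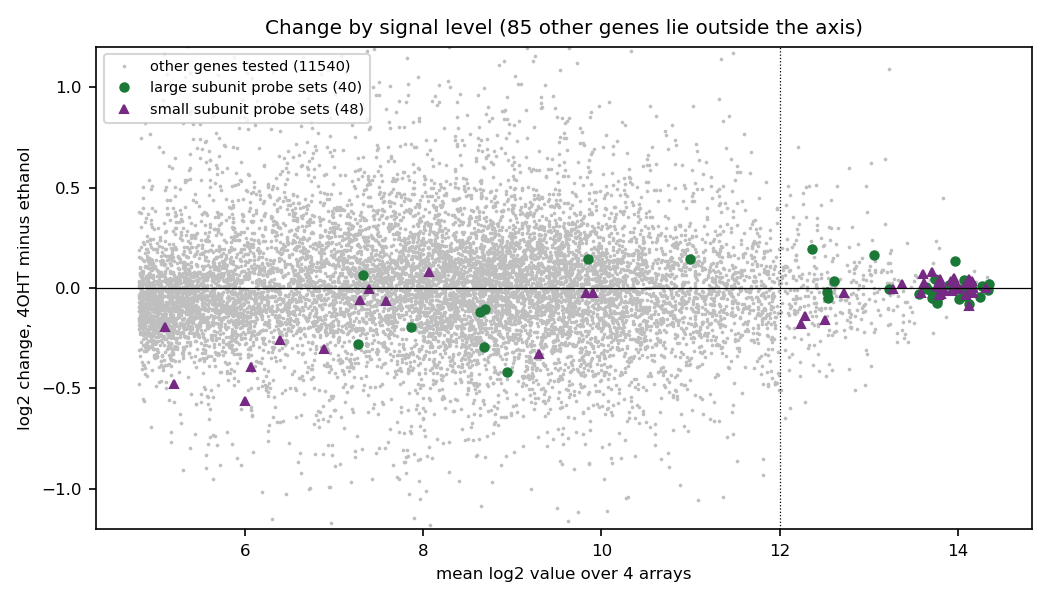
Log2 change, 4OHT minus ethanol, against the mean log2 value for 88 member probe sets (green circles, large subunit; purple triangles, small subunit) over 11540 other genes in grey; the dotted line is at 12. Most member sets right of the line lie close to 0, while 18 of the 22 under 12 lie below it.

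**Figure D4:**
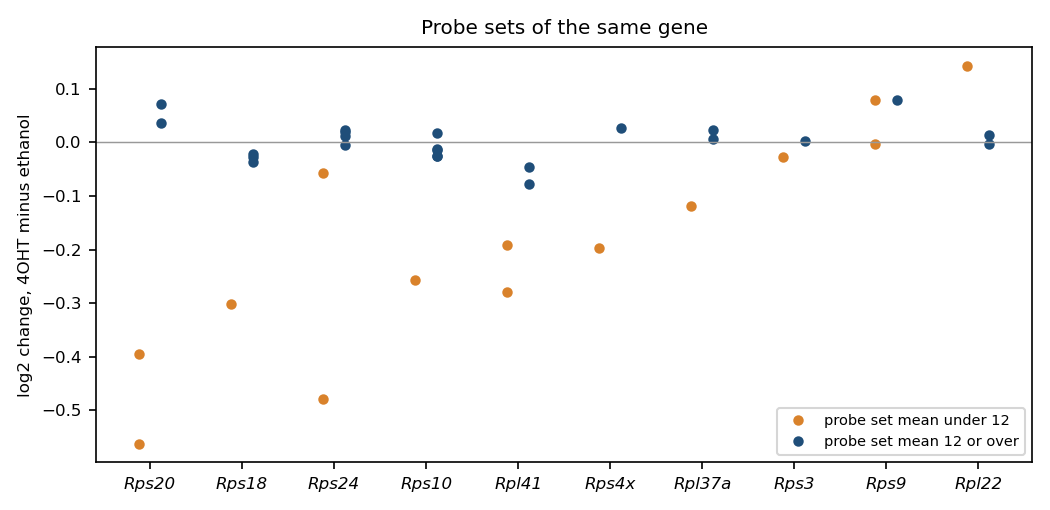
Log2 change, 4OHT minus ethanol, of each probe set in the 10 genes that have both dim (orange, mean under 12) and bright (blue, 12 or over) sets. The dim sets have the lower mean change in 9 genes, and Rpl22 at the right is the exception.

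A further 110 probe sets name several genes with a symbol of the pattern among them and were not read for a single gene. Of these sets, 79 had a mean of 12 or over, with a median change of 0.0085 and a range from -0.15 to 0.093. The 31 dimmer ones had a median of -0.058 and ran from -0.47 to 0.60, with 18 below 0, and a floor was not applied to them. The RefSeq table holds 80 protein-coding symbols of the pattern, of which 44 are members, 28 are found only on sets naming several genes and 8 have no named probe set here.

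Other genes of the translation apparatus were set beside the members. Of 17 elongation factors and further TOP mRNAs none was called, and 1 was at an unadjusted p under 0.05, beside 25.5% of all genes tested. The median change of the 17 was 0.0082 (-0.0051 with quantile normalization). Eef1a1, which brings aminoacyl-tRNA to the ribosome, had 14.36 and 14.38 with 4OHT and 14.36 and 14.31 with ethanol. Eef1d, a subunit of its exchange factor, had the lowest change, -0.28 (adjusted p = 0.113, called with the intensity trend, robust or not), and Npm1, a nucleolar chaperone, was at -0.21 (adjusted p = 0.257). Of the relatives outside the pattern, Rpsa, a small subunit protein, was at -0.059 and Fau, which encodes a precursor of a small subunit protein, at 0.042. Rpl7l1, a nucleolar relative of Rpl7, had 10.46 and 10.44 with 4OHT, against 10.97 and 10.76 with ethanol (log2 change -0.41, adjusted p = 0.0766), while Rpl7 had 13.92 and 13.90 with 4OHT and 13.92 and 13.86 with ethanol. None of the 4 relatives was called, and 1 was at an unadjusted p under 0.05, where 25.5% of all genes were. Rpl7l1 was called with an intensity trend, which called 11.2% of all genes, or the replicate block, which called 18.4%.

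The factors that assemble ribosomes were lower with 4OHT. Of 25 tested, 13 fell, none rose and 12 did not pass, where 3.57% of all genes were called lower, and the median change was -0.48, with 23 below 0. Noc2l, a nucleolar factor of 60S maturation, had 9.81 and 9.86 with 4OHT, against 10.54 and 10.57 with ethanol, and fell 1.65-fold (adjusted p = 0.0165). Bop1, a 60S processing factor, had 10.11 and 10.06 with 4OHT and 10.71 and 10.81 with ethanol, and fell 1.59-fold (adjusted p = 0.0205). Wdr12, its partner, and Bysl, of the 40S pathway, fell 1.54-fold each (adjusted p = 0.0305 and 0.0456). None of the 25 was called when any 1 array was left out, with medians from -0.51 to -0.48 in those fits. From 9 (mean of probe sets) to 20 (replicate block) were called in the others. Among all genes, the mean of probe sets called 358 of 10741 lower and the replicate block 1031 of 11581. The list was written with earlier results of these arrays known and is not independent evidence of its direction. A direct test of the assembly factors against the ribosomal protein genes was not made.

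**Figure D5:**
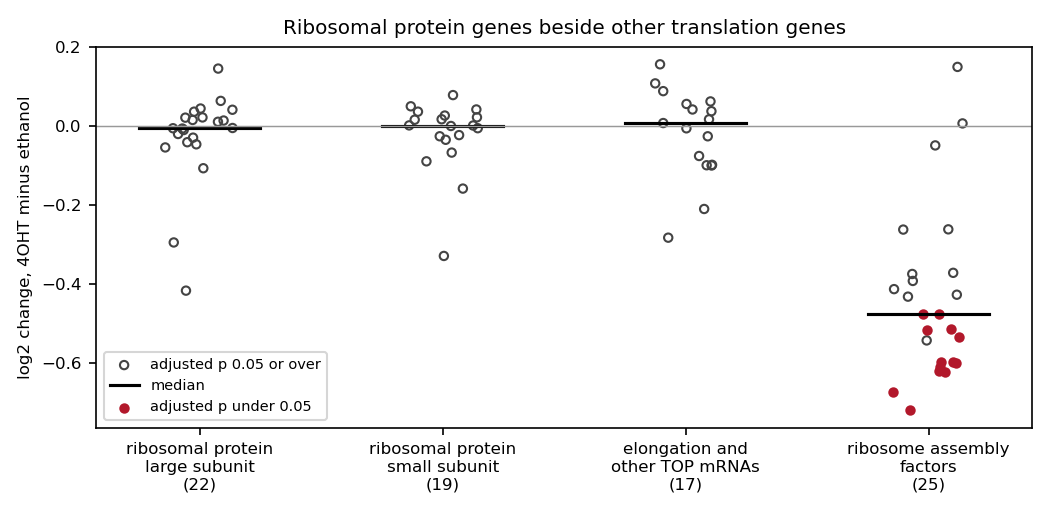
Log2 change, 4OHT minus ethanol, of each gene tested in 4 groups, with the number of genes in brackets, a bar at the median and filled red points for an adjusted p under 0.05. The ribosomal protein and TOP groups centre on 0, and all 13 called genes lie in the assembly group.

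Of the regulators upstream, Myc fell. Myc, which drives growth genes, had 10.96 and 11.12 with 4OHT, against 11.63 and 11.94 with ethanol (1.67-fold lower, adjusted p = 0.0358, and without its call whichever array was left out). Of 12 genes of the mTOR and S6 kinase axis none was called. Before adjustment 3 had a p under 0.05, as did 25.5% of all genes tested. Other fits called at most 2, with the replicate block, which called 18.4% of all genes. The lowest change of the 12 was in Eif4ebp1, the translation repressor that mTOR inactivates (log2 change -0.98, adjusted p = 0.0563). It had 10.06 and 10.72 with 4OHT and 11.36 and 11.38 with ethanol. Larp1, which binds TOP mRNAs, was at -0.32 (adjusted p = 0.126). In the 5S particle and p53 checkpoint list, 1 of 4 fell, where 3.57% of all genes were called lower. None rose, and the median was 0.11. No gene of this list was called when any 1 array was left out. Heatr3, which in human cells helps import Rpl5, fell 1.53-fold (adjusted p = 0.0348), and Mdm4, a p53 inhibitor, was at 0.46 (adjusted p = 0.0614). Mdm4 was called higher with the filter at the 60th percentile, both intensity trends and the replicate block. Those fits called 1008 of 8356 genes, 1299 and 1345 of 11581, and 2135 of 11581. Cdkn1a, a p53 target, had 10.62 and 10.47 with 4OHT and 10.50 and 10.52 with ethanol.

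The annotated start sites of some members show the feature that TOP mRNAs share. RefSeq promoter windows of GRCm38.p6, from 250 bases before to 50 after an annotated start, were found for 39 of the 45 members, in 47 windows. At the annotated start itself, a C followed by at least 4 pyrimidines stood in 8 of the 47, or 17%, beside 2.51% of all 32851 windows. Within 10 bases before and 20 after the start, a C with pyrimidines to a length of at least 6 stood in 25 of the 47, or 53.2%, beside 22% of all. The 8 genes with such a start are shown, 10 bases before to 20 after the start, on the strand of the gene and with the longest pyrimidine run, counted from its first C, in capitals.
Rpl14 (chr9:120571507-120571536, plus strand): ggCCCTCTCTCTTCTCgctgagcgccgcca
Rpl35 (chr2:39005112-39005141, minus strand): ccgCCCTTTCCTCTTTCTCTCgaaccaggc
Rpl38 (chr11:114668570-114668599, plus strand): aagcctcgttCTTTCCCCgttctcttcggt
Rplp2 (chr7:141447641-141447670, plus strand): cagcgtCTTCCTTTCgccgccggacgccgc
Rps6 (chr4:86857348-86857377, minus strand): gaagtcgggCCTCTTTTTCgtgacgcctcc
Rps10 (chr17:27635225-27635254, minus strand): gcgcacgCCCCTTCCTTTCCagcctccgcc
Rps18 (chr17:33955646-33955675, minus strand): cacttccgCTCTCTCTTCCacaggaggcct
Rps27 (chr3:90213629-90213658, minus strand): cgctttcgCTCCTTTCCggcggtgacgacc
These 8 genes had a median change of -0.033 and the 28 other tested members with a window 0.013. Rpl14, with the lowest change, and Rplp2, at -0.0095, both have such a start.

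Promoters were also searched on both strands for CACGTG, the E-box that Myc and Max bind, since Myc was lower with 4OHT. It was found in 4 of the 39 genes and in 5 of the 47 windows, or 10.6%, beside 7.15% of all windows. Each is shown in 30 bases with the motif in capitals.
Rpl13a (chr7:45128928-45128957, minus strand): cgctccgaaaccCACGTGacatcccgcccc
Rpl14 (chr9:120571337-120571366, plus strand): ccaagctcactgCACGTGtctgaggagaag
Rpl19 (chr11:98026679-98026708, plus strand): tacccagaggacCACGTGaccaaacgccct
Rps19 (chr7:24884781-24884810, plus strand): tggagccgcggcCACGTGcgagcggcaggc
Counted from the annotated start, the E-box begins at position -200 in Rpl13a and -168 in Rpl14. It begins at -19 in Rpl19, for the nearer start, and at -120 in Rps19, for the start furthest downstream. The other annotated starts of Rps19 lie upstream of its E-box. The 4 genes ranged in change from -0.42 in Rpl14 to 0.042 in Rpl13a, with a median of 0.0014, and the 32 tested members without the motif had a median of -0.0018. Other words were looked for on both strands, and the first was picked after the windows were seen. CCGGAAG, a core that ETS factors bind, stood in 40.4% of member windows and 8.86% of all, and TATAAA in 10.6% of member windows and 13.6% of all. A match is a description of these letters only.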

How the data were processed

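RNA was measured on 4 Affymetrix arrays. Each probe set has 1 deposited log2 value on each array. Per the submitters' processing notes the authors used RMA, which corrects background, normalizes by quantiles and summarises probes. No version of RMA was given in the sources used here. That the scale is log2 was judged by the values. There is no detection call or read depth, so the number of arrays limits the precision. Gene names came from the platform annotation: 34945 probe sets named 1 gene and 932 several.

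Testing was limited to genes whose mean reached the 40th percentile over named probe sets. Treatments were compared in R 4.3.3 by limma 3.58.1 (eBayes without trend or block), with Benjamini-Hochberg adjustment over 11581 genes. The fit was also run on simulated data with independent noise on each array. Deviations shared by same-numbered arrays were not simulated. Alternatives were other filters, scalings, probe set choices and variance priors, the replicate block, other thresholds and each array left out. A fit of all probe sets, the split by level and the lists under each fit were added after seeing the data.

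The members and lists were chosen with earlier results of these data known. Genes named were the 4 highest and 4 lowest changes of each subunit, genes set by role, and up to 4 of each list; the probe sets under 12 were named after their values were seen.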

Additional observations from a re-analysis of the deposited data

How the results depend on the processing

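With each array left out, 21 to 191 genes were called in all, against 865 with all arrays, and 0 of the large and 0 of the small subunit, while the subunit medians ran from -0.0067 to 0.021 (large) and from -0.017 to 0.017 (small). The median change of the large subunit moved by more than the spread between arrays without _x_at, _s_at and _a_at probe sets (-0.029). It moved the other way without ethanol replicate 1 (0.021). For the small subunit it moved without those probe sets (-0.062) and with the mean of probe sets (-0.053). The spread is here the pooled within-group SD of the subunit's median value on each array, 0.011 (large) and 0.021 (small). On every array the small subunit's median value was that of Rps7. With the replicate number as a block, 2135 genes were called in all, 1 of the large subunit (Rpl14) and 1 of the small subunit (Rps25). An intensity trend gave 1299 genes and a robust one 1345, each with 1 large subunit gene, as did the filter at the 60th percentile and a threshold of 0.1 (1677 genes); at 0.01, 46 genes were called. The labels do not say that a replicate number marks a shared culture; between same-numbered arrays the deviations correlated at 0.343 over all genes, 0.661 over the members and 0.617 over their probe sets under 12. For single named members, 278 of 288 values kept their side of the threshold and either their sign or a place within the spread between arrays, and 5 were called only in the alternative. The other 5 turned sign: Rps20 (-0.21), Rps4x (-0.085) and Rps6 (0.0078) with the mean of probe sets, and Rps20 (-0.56) and Rps9 (-0.0024) without the marked probe sets. The cause of these moves was not tested, apart from the fewer arrays or probe sets in a fit.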
